A study of Drosophila melanogaster with 2 samples.

Results

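The genes of the cytosolic translation factors of Drosophila melanogaster were examined for peaks of CG1792 at their transcript starts. CG1792 encodes a protein with C2H2 zinc fingers and a zinc-finger associated domain (ZAD). The set held the protein-coding genes of the Ensembl annotation whose symbol begins with eIF, eEF or eRF and a digit, which gave 53 of 13945 protein-coding genes. The values came from chromatin immunoprecipitation with sequencing (ChIP-seq) of whole embryos aged 0 to 24 hours, males and females together, from a stable transgenic line that makes CG1792 with green fluorescent protein (GFP) at its C-terminal end. Chromatin was precipitated with an antibody against GFP, although another label field names CG1792 as the antibody. There were 2 libraries in 1 group, labelled as biological replicates 2 and 3. No library of another genotype or treatment was among the samples, so no conditions were compared. Whole embryos mix all cell types, so a peak cannot be assigned to any of them.

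Translation initiation factors (eIF) bring the initiator tRNA, the small ribosomal subunit and the capped mRNA together. Elongation factors (eEF) deliver aminoacyl-tRNAs and move the ribosome along the message, and release factors (eRF) end the chain at a stop codon. Most of these proteins are needed in every growing cell, whereas some members of gene families have narrower roles, such as eIF4E3, which is known for its part in spermatogenesis. The set comprised 44 eIF genes, 7 eEF genes and 2 eRF genes, with 12 on 2R, 12 on 3L, 15 on 3R, 7 on X, 6 on 2L and 1 on chromosome 4.

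The authors deposited a thresholded list of 2892 peaks, a pooled list of 30000 regions that continues into background, and a list of 30000 regions for each replicate. The thresholded peaks were the 2892 strongest pooled regions. The signal is the value that the peak caller gave a region for its strength, on a scale that the files do not state. Signals were therefore read within a list, and lists were compared by rank. The weakest thresholded peak had a signal of 66.97 and the median was 100.6. Read counts are not part of these lists, and the sequencing depth is therefore unknown. No 2 regions of the replicate lists had the same start, end and signal.

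A gene is called bound here when a thresholded peak had its summit no more than 500 bp from an annotated start of the gene. By this rule 12 of the 53 translation factor genes were bound, or 22.6% (Wilson 95% interval 13.5% to 35.5%, for the counting of genes only). Of all protein-coding genes 14.2% were bound, and that value lies inside the interval. The bound genes were eIF6, eEF1gamma, eIF3c, eIF4EHP, eIF1, eEF5, eIF3a, eIF3h, eEF1alpha1, eIF2A, eIF4E1 and eEF2, in order of signal. Elongation factor genes were bound in 4 of 7 cases (57.1%, interval 25% to 84.2%), initiation factor genes in 8 of 44 (18.2%, interval 9.51% to 32%) and release factor genes in 0 of 2. These classes were not tested against each other, and their intervals overlap. The 4 bound elongation factor genes each have more than 1 annotated start, and of all protein-coding genes with more than 1 start 24.6% were bound.

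**Figure D1:**
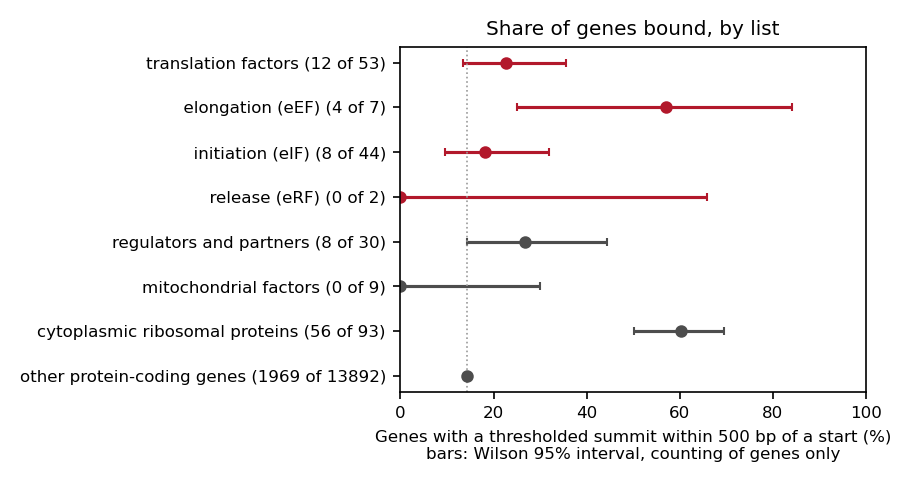
Share of genes with a thresholded summit within 500 bp of a start (x axis, percent) for the translation factor genes and their classes (red) and for other gene lists (grey). Bars are Wilson 95% intervals for the counting of genes, and the dotted line marks the share in all other protein-coding genes (14.2%). The interval of the elongation factor genes, 25% to 84.2%, lies to the right of that line, and that of the initiation factor genes crosses it. Neither class was tested against the line.

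Weaker regions were listed at most of the other starts, in a list that continues into background. The authors' −log10 q-value, which is larger for a more reliable region, varied widely among them. It was 3.3 at eIF2Bepsilon and 3.13 at eIF2Bgamma, but 0.364 at eEF1delta, 0.183 at eIF5 and 0.123 at eIF3j. A listed region is therefore not by itself a peak. A summit of the pooled list lay within 500 bp of a start in 41 of the 53 genes (77.4%, interval 64.5% to 86.5%), against 53.2% of all protein-coding genes. The median signal of the strongest such region was 49.58 over these 41 genes and 41.43 over the 7414 protein-coding genes with one. A further 12 translation factor genes (22.6%) had their strongest region at ranks 2893 to 5784, just below the thresholded list, where 10.4% of all protein-coding genes lay. No pooled region was listed at 12 genes, against 46.8% of all protein-coding genes, and 10 of these 12 had none in either replicate list.

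**Figure D2:**
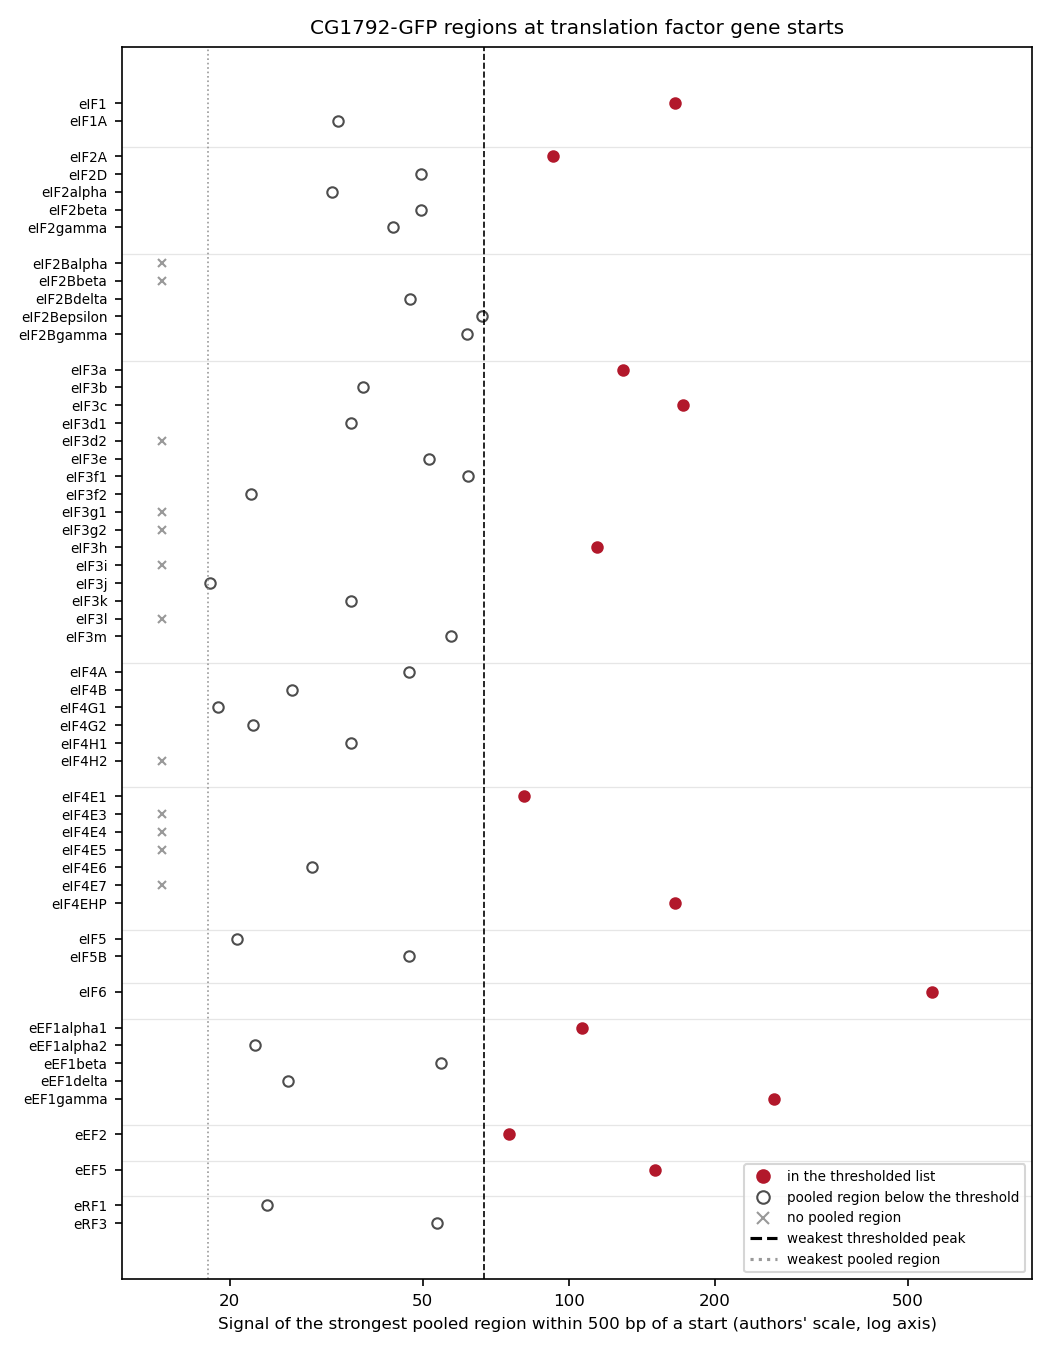
Signal of the strongest pooled region within 500 bp of a start (x axis, authors' scale, logarithmic) for each of the 53 genes, grouped by role from eIF1 at the top to eRF at the bottom. Filled points are thresholded peaks, open points weaker pooled regions, and crosses genes with no pooled region. The dashed line is the weakest thresholded peak (66.97); eIF6 stands furthest right at 560.1 and eIF2Bepsilon just left of the line at 66.1.

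DNA at the peaks is shown for 6 bound genes, chosen because their peaks span signals of 80.93 to 264.9 and the stretches shown hold few or no annotated UTR bases. The sequences are the Release 6 reference (dm6), read 5′ to 3′ on the strand of the named gene, and cover the summit and 50 bp on either side, except that of eIF3a, which covers the 69 bp between its start and that of the opposite gene and leaves out the summit, which lies in the 5′ UTR of that gene. Capitals mark matches to the elements searched: the DNA replication-related element (DRE, TATCGATA), which the factor Dref binds, its core CGATA, and the TATA box TATAAA, on either strand.
eEF1gamma, chr3R:29220087-29220187, + strand: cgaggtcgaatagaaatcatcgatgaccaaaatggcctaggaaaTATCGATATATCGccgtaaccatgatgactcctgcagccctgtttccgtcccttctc
eIF1, chr3L:3222957-3223057, + strand: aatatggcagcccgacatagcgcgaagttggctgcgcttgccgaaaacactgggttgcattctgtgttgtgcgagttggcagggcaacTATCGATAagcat
eIF3a, chr3R:4433896-4433964, − strand: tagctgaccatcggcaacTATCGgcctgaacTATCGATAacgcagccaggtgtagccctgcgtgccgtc
eIF4E1, chr3L:9402469-9402569, − strand: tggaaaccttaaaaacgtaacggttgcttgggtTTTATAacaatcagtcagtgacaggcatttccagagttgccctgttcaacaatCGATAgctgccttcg
eIF4EHP, chr3R:24109015-24109115, − strand: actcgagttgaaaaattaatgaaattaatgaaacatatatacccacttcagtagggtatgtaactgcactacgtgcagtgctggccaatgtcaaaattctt
eIF3h, chr2L:5052487-5052587, − strand: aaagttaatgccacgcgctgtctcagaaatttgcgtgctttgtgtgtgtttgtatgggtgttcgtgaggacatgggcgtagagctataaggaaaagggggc
In eEF1gamma the DRE ran from −6 to 1 bp of the summit in the thresholded list. The summits of replicate 2 and replicate 3 lay 36 and 6 bp from that position, past that 8-letter match; replicate 3 lay on the last base of a DRE core match running from 2 to 6 bp. In eIF1 it lay 38 to 45 bp and in eIF3a 34 to 41 bp on the gene side of the summit. The windows of eIF4EHP and eIF3h hold none of the letters searched.

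Among the elongation factors, eEF1gamma had the strongest peak. Its protein is the structural subunit of the complex that recharges eEF1A with GTP. The peak lay on 3R at 29220036 to 29220234 and covered the start, with its summit 35 bp before it, between genes. The pooled signal was 264.9, with 123.3 in replicate 2 and 141.6 in replicate 3, and the ranks were 207, 200 and 205. The rank was thus nearly the same in all 3 lists. Weaker regions were listed at the other subunits of that complex, with a −log10 q-value of 2.37 at eEF1beta and 0.364 at eEF1delta. At eEF1beta the pooled signal was 54.51 (rank 4123, summit 348 bp inside the gene). At eEF1delta it was 26.4 (rank 15262), with no region in replicate 3.

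Of the pair of genes for eEF1A itself, which carries aminoacyl-tRNA to the ribosome, eEF1alpha1 was bound. At eEF1alpha1 (2R, 11891859 to 11892274) the signal was 106.3, with 54.73 in replicate 2 and 51.03 in replicate 3 (ranks 1300, 1123 and 1643). The summit lay 55 bp upstream of 1 of its 4 annotated starts, inside an intron of the longer transcripts. At eEF1alpha2 the strongest pooled region had a signal of 22.5 and rank 20642, and replicate 2 listed none. The nearest thresholded summit to eEF1alpha2 was 20969 bp away.

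eEF5 and eEF2 were also bound. The eEF5 protein, known in other species as eIF5A, carries the modified residue hypusine and helps ribosomes through difficult stretches of peptide. Its peak (2R, 24057558 to 24057973, summit at −32 bp) had a signal of 150.6, with 70.87 in replicate 2 and 75.46 in replicate 3. eEF2, the translocase, had the weakest of the 12 peaks (2L, 21681925 to 21682340, summit at −17 bp), with a signal of 75.32 and ranks of 2372, 2420 in replicate 2 and 2758 in replicate 3. The position of the eEF2 summit is from the inner of its 2 starts, and the summit lies in its annotated 5′ UTR.

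eIF6 had the strongest peak of all 53 genes. Its protein binds the large ribosomal subunit and keeps it from joining the small one too early. The peak lay on 2R at 23850259 to 23850547 and covered the start, with its summit 93 bp upstream, inside an intron of ytr. It ranked 44 in the pooled list, 43 in replicate 2 and 39 in replicate 3, with signals of 560.1, 264.4 and 290.5. Its summits in the replicates lay 7 and 0 bp from the pooled summit. No other protein-coding gene starts within 500 bp, although the antisense RNA gene CR45928 does, with its start 64 bp from the summit.

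**Figure D3:**
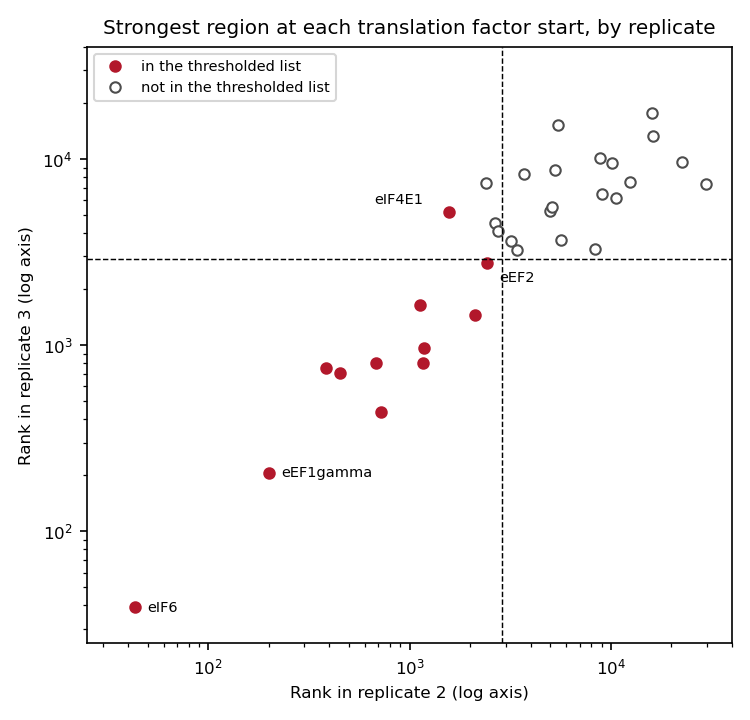
Rank of the strongest region at each translation factor start in replicate 2 (x axis) and replicate 3 (y axis), both logarithmic, for genes with a region in both lists. Filled points are genes with a thresholded peak, and dashed lines mark rank 2892. eIF6 and eEF1gamma lie at the lower left with nearly equal ranks, and eIF4E1 is the only filled point beyond a dashed line, at 1577 in replicate 2 and 5195 in replicate 3.

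eIF3, the large scaffold that holds the small subunit and recruits the mRNA, has 16 genes in this annotation, and 3 of them were bound. The peak at eIF3c (2R, 17665441 to 17665856, summit at −29 bp) had a signal of 172.2, with 92.3 in replicate 2 and 78.01 in replicate 3. The peak at eIF3a (3R, 4433759 to 4434174) had a signal of 129.4, with 53.21 and 75.71 in replicates 2 and 3. eIF3a and eIF3c encode large core subunits of the complex. eIF3h carried a pair of thresholded summits. Both were placed from the nearer of its 2 annotated starts, which is the inner one. The stronger (2L, 5052329 to 5052744, signal 114.2, ranks 1182 and 970 in replicates 2 and 3) lay 243 bp past that start in an intron. The second lay 3 bp past that start, with a signal of 100.3 and ranks of 1249 in replicate 2 and 2884 in replicate 3.

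The other 13 eIF3 genes were below the threshold. Their pooled signals were led by eIF3f1 at 61.93 (rank 3346) and eIF3m at 57.29 (rank 3794), followed by eIF3e at 51.52 and by eIF3b, eIF3k, eIF3d1, eIF3f2 and eIF3j between 37.58 and 18.25. eIF3g1, eIF3g2, eIF3d2, eIF3i and eIF3l had no pooled region. eIF3f1 ranked 2391 in replicate 2 and 7442 in replicate 3, so it counted as bound by replicate 2 alone. Within the numbered pairs, eIF3d1 (35.5) and eIF3f1 had a pooled region; eIF3d2 had none in any list, and eIF3f2 had one at 22.18. Neither eIF3g1 nor eIF3g2 had a region in any list.

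Among the cap-binding genes, eIF4E1 and eIF4EHP were bound. eIF4E1 encodes the main protein that holds the mRNA cap. Its peak (3L, 9402311 to 9402726, summit at −59 bp from 1 of 4 starts) had a signal of 80.93. It was the bound gene on which the replicates differed most, with a signal of 46.04 and rank 1577 in replicate 2 and a signal of 26.67 and rank 5195 in replicate 3. eIF4EHP encodes a related protein that binds the cap but blocks translation, known from the repression of caudal mRNA by Bicoid. Its peak (3R, 24108857 to 24109272, summit at −105 bp) had a signal of 165.4, with 69.32 and 101.5 in replicates 2 and 3, and a second thresholded summit lay at −304 bp with a signal of 91.24. Of the other 5 eIF4E genes, eIF4E6 had a pooled region of signal 29.53, and eIF4E3, eIF4E4, eIF4E5 and eIF4E7 had no region in any list. The remaining eIF4 genes were not bound (0 of 6; a count of 0 allows a share of up to 50%). eIF4A, the helicase, had a pooled signal of 46.8, the accessory gene eIF4H1 35.59, eIF4B 26.93, and the scaffold genes eIF4G2 and eIF4G1 22.36 and 18.93. eIF4H2 had no region in any list. eIF4B stood apart in position, since the nearest thresholded summit was 4979382 bp from its start on 3L.

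At the small-subunit factors, eIF1 and eIF2A were bound. eIF1 guards the choice of start codon. Its peak (3L, 3222914 to 3223109) had a signal of 165.3, with 85.99 in replicate 2 and 80.29 in replicate 3, but the summit was at −334 bp from eIF1 and at −47 bp from RpL28, a gene of the large ribosomal subunit that is read the other way. eIF2A, which in other species can bring initiator tRNA by a route apart from eIF2, had a signal of 92.9 (3L, 21824702 to 21825117, summit at −55 bp), with ranks of 2110 and 1451 in replicates 2 and 3. The position of the eIF2A summit is from the inner of its 2 starts, and the summit lies in its annotated 5′ UTR. The genes of the eIF2 trimer, which delivers the initiator tRNA and is the target of stress kinases, were not bound. Their pooled signals were 49.58 for eIF2beta, 43.33 for eIF2gamma and 32.57 for eIF2alpha, and that of eIF2D, which recycles or reinitiates ribosomes, was 49.69. eIF1A had 33.44.

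None of the 5 genes of eIF2B, the exchange factor that recharges eIF2, was bound (0 of 5, limit 60%), yet this group held the gene nearest to the threshold. eIF2Bepsilon had a signal of 66.1 at rank 2972, and eIF2Bgamma 61.56 at rank 3374. Of the remaining genes, eIF2Bdelta and eIF2Balpha depended on the list. eIF2Bdelta ranked 2702 in replicate 3, 5220 in the pooled list and nowhere in replicate 2. eIF2Balpha ranked 2390 in replicate 2 and had no region in the pooled list or in replicate 3. eIF2Bbeta had none within 500 bp in any list, but a thresholded peak of signal 1429 and rank 3 lay 686 bp from its start.

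Joining and release factors were below the threshold too. eIF5B, which joins the subunits, had a pooled signal of 46.76 and eIF5, which activates the GTPase of eIF2, 20.66. eIF5B also held a thresholded peak in an intron 27710 bp from its starts (3L, 3432685 to 3433100, signal 87.79), and eIF4EHP held one 9795 bp inside the gene (signal 73.83). eRF3, the GTPase of termination, had a pooled signal of 53.53 with ranks of 2746 in replicate 2 and 4129 in replicate 3, and eRF1, which reads stop codons, had 23.88. All 7 genes on X and the 1 gene on chromosome 4, eIF4G1, were without a thresholded peak at a start. For X this allows a share of up to 42.9%, above the 14.2% of all protein-coding genes bound on any chromosome. The share over all genes on X is not given here, so this count is not read as a difference between chromosomes.

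Each of the 12 peaks had a summit in both replicate lists within 100 bp, at most 54 bp from the pooled summit. Both replicates had 11 of the 12 within their 2892 strongest regions, the exception being eIF4E1, against 68.8% of the 1409 thresholded peaks at protein-coding starts. The thresholded peaks are the strongest regions of a list made from both replicates, so this support is partly built in. Counted from the 2892 strongest regions of a single replicate, 16 of the 53 genes were bound in replicate 2 (30.2%, against 14.3% of all protein-coding genes) and 12 in replicate 3 (22.6%, against 13.7%). Replicate 2 added eIF2Balpha, eIF2Bgamma, eIF3f1 and eRF3, and replicate 3 added eIF2Bdelta and lacked eIF4E1. The strongest regions of both replicates marked 11 genes (20.8%, against 10.6% of all protein-coding genes). In the stronger 1446 of the thresholded peaks, 9 of the 53 genes were bound (17%, against 7.6% of all protein-coding genes).

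Summits at the bound genes mostly lay close upstream of the nearest annotated start. The strongest summit per gene was upstream in 11 of the 12 (91.7%), against 1685 of all 1981 bound protein-coding genes (85.1%), and 9 of the 12 (75%) lay in the 100 bp before the start, against 598 of those 1981 (30.2%). The median position was −55 bp for the 12 genes, with quartiles of −77.25 and −31.25 bp, and −114 bp for all bound protein-coding genes, with quartiles of −203 and −39 bp. The 12 genes have 12 distinct peaks, whereas the 1981 genes share 1409 peaks. A peak near the starts of several genes is counted for each of them, also from the farther start. Having more than 1 start, which can shorten the distance to the nearest, applied to 41.5% of the translation factor genes and 26.5% of all protein-coding genes. These positions, and the part of these 2 features in them, were not tested. The exceptions were eIF3h, past its nearest start, and eIF1 and eIF4EHP further upstream. For eEF1alpha1, eIF2A, eEF2 and eIF3h the nearest start was an inner one, and the summit lay inside the gene. The median rank of the 12 peaks was 790.5 in the thresholded list, and that of all bound genes was 1350.

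**Figure D4:**
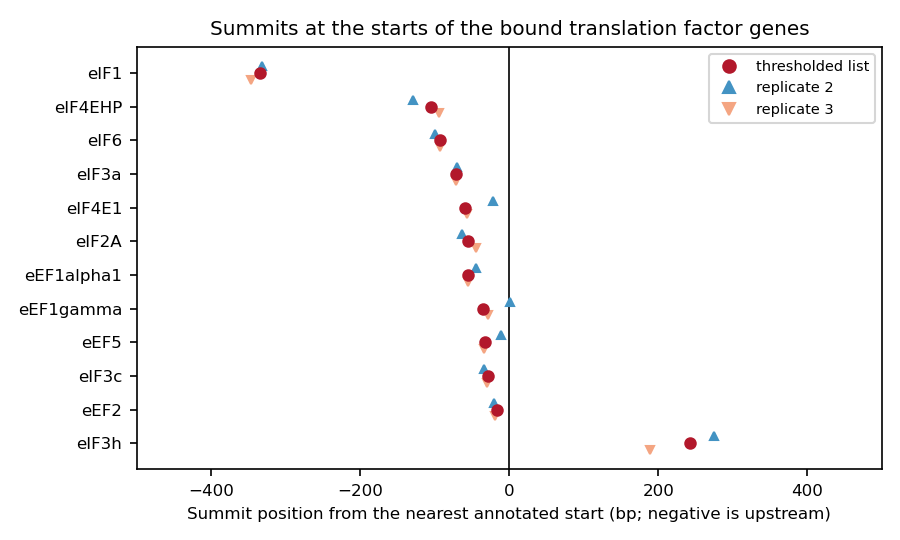
Position of the strongest summit from the nearest annotated start (x axis, bp, negative is upstream) for the 12 bound genes, in the thresholded list (circles) and in replicate 2 and replicate 3 (triangles). Most circles lie within 105 bp upstream of the start, with eIF1 at −334 bp and eIF3h at 243 bp. The triangles of replicate 2 and replicate 3 stay near the circle of the same gene.

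Some peaks were shared with neighbours. Of the 12, 8 had no other protein-coding start within 500 bp and 4 did, each on the opposite strand. The same split over all 1409 thresholded peaks at protein-coding starts is not given here, so 4 of 12 is not read as high or low. The summit at eIF1 was nearer to RpL28, and that at eIF3a lay 2 bp inside CG1074, whose 5′ UTR it overlaps, and 72 bp upstream of eIF3a. The summit at eIF4EHP was at −271 bp from the start of CG18428, and the stronger summit at eIF3h at −306 bp from that of senju. Which gene of such a pair a peak belongs to was not tested. When a summit could mark the gene of its nearest start alone, 10 translation factor genes were bound (18.9%, against 10.2% of all protein-coding genes), without eIF1 and eIF3a.

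Gene layout moved with binding across the genome. More than 1 annotated start was present in 22 of the 53 genes (41.5%), against 26.5% of all protein-coding genes, and each start widens the region searched. Among genes with more than 1 start, 8 of 22 translation factor genes were bound (36.4%, against 24.6% of all such genes), and among those with 1 start 4 of 31 (12.9%, against 10.5%). Genes with a head-to-head neighbour, whose opposite start lies within 500 bp upstream, were bound in 4 of 20 cases (20%, against 28% of all such genes), and those without in 8 of 33 (24.2%, against 9.23%). The part of either feature in the count was not tested.

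Known promoter elements were counted in the window from 250 bp before to 50 bp after the outermost start. TATCGATA was found in 15 of 53 translation factor genes (28.3%) and in 9.36% of all protein-coding genes. The share was 4 of 12 in bound (33.3%) and 11 of 41 in unbound translation factor genes (26.8%). In all bound protein-coding genes it was 305 of 1981 (15.4%). The core CGATA, which the DRE contains on each strand, was in 34 of 53 (64.2%, against 47.4%). The core of Ohler 1, GGTCACAC, was in 6 of 53 (11.3%, against 7.7%) and in none of the 12 bound, and the E-box CACGTG was in 4 of 53 (7.55%, against 4.2%). TATAAA was in 25 of 53 (47.2%, against 45.8%), and GAGAG in 8 of 53 (15.1%, against 29.7%). Ohler 6 was in 3 of 53 (5.66%, against 2.23%) and Ohler 7 in 3 of 53 (5.66%, against 9.29%). Split by binding, TATAAA was in 8 of 12 bound (66.7%) and 17 of 41 unbound translation factor genes (41.5%), and in 42.5% of all bound protein-coding genes. Ohler 6 was in 2 of 12 bound (16.7%), 1 of 41 unbound (2.44%) and 3.18% of all bound protein-coding genes. In the same order, the E-box was in 2 of 12 (16.7%), 2 of 41 (4.88%) and 5.65%. Ohler 7 was in 1 of 12 (8.33%), 2 of 41 (4.88%) and 19.4%, and GAGAG in 2 of 12 (16.7%), 6 of 41 (14.6%) and 29.7%. CGATA was in 8 of 12 (66.7%), 26 of 41 (63.4%) and 56.5%, and GGTCACAC in 0 of 12, 6 of 41 (14.6%) and 10.4%. The TCT initiator, known from ribosomal protein and other translation genes, was searched as CTTTT or CTTTC on the sense strand with its first base within 10 bp of the start. It was present in 8 of 53 genes (15.1%, against 6.62%), among them the bound genes eEF1alpha1 and eIF4E1. All other elements were searched on both strands. A match of letters is not a binding site, and none of these shares was tested.

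In the window of 50 bp on either side of the summit, TATCGATA was present in 4 of the 12 peaks (33.3%), those of eIF1, eIF2A, eIF3a and eEF1gamma, against 73 of 1409 thresholded peaks at protein-coding starts (5.18%). The bound genes with it in the promoter window were eIF3c, eIF6, eIF3a and eEF1gamma, so only eIF3a and eEF1gamma were in both counts. The summits at eIF1 and eIF3a are nearer to the starts of RpL28 and CG1074. CGATA was present in 7 of the 12 (58.3%, against 25.9%), with eEF2, eEF5 and eIF4E1 besides eIF1, eIF2A, eIF3a and eEF1gamma. GGTCACAC was in 2 of the 12, eIF2A and eEF1alpha1 (16.7%, against 2.13%), whose summits lie at inner starts, away from the outermost start searched above, and GAGAG in eIF3c alone (8.33%, against 11%). TATAAA was in 2 of the 12, eIF6 and eIF4E1 (16.7%, against 15.1%). Ohler 6, Ohler 7 and the E-box were in 0 of the 12, against 0.923%, 7.03% and 1.85%. The GC content of the 12 windows had a median of 48%, with a range of 29.7% to 52.5%, and the peaks at protein-coding starts had a median of 37.6%.

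Other genes of translation gave a frame for these counts. Of 30 regulators and partners of the factors, 8 were bound (26.7%, interval 14.2% to 44.4%, against 14.2% of all protein-coding genes). When a summit could mark the gene of its nearest start alone, 7 of the 30 were bound, and which gene was lost is not given here. The strongest of the 8 were larp (signal 616.6, rank 31, summit at −331 bp), Gcn2 (147.2, rank 711, −231 bp) and Rack1 (111.8, rank 1193, −2 bp). The larp protein binds the capped 5′ ends of ribosomal protein mRNAs, Gcn2 is a kinase of eIF2alpha, and Rack1 is a protein of the small ribosomal subunit. The remaining 5 had signals of 101.3 or less and included Thor, which encodes the 4E-BP inhibitor of eIF4E (101.3, summit at −38 bp) and was chosen for mention after its value was seen. Sbds and CG33158, whose relatives in other species release eIF6 from the large subunit, were not bound, with pooled signals of 59.28 and 34.11, although Sbds had regions among the 2892 strongest of each single replicate, at rank 2612 in replicate 2 and rank 1568 in replicate 3. None of 9 mitochondrial translation factor genes was bound (0 of 9, for which the limit is a share of 33.3%, above the 14.2% of all protein-coding genes). A pooled region was listed at 6 of the 9 (66.7%, interval 35.4% to 87.9%), against 53.2% of all protein-coding genes, a value inside the interval. In the 2892 strongest regions of replicate 3 taken alone, 1 of the 9 was bound, against 13.7% of all protein-coding genes. It was mRF1 at rank 2299, which is named because of that value. Genes with cytoplasmic ribosomal protein symbols, 93 by this pattern, were bound in 56 cases (60.2%, interval 50.1% to 69.6%). That interval lies above the 13.5% to 35.5% of the translation factor genes, and the difference was not tested.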

How the data were processed

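ChIP-seq peak lists from 2 biological replicates of CG1792-GFP embryos were analysed on dm6. Per the file listing deposited with the samples, the authors called regions against a control for each replicate and for both together, and thresholded them by the irreproducible discovery rate. For the aligner, the caller and their versions the sources used here give nothing. The deposited signal values and the deposited −log10 q-values (at their shared maximum for the 12 bound genes, and otherwise given for only a few pooled regions) are the authors'. Lists on dm3, the control and the signal tracks were not used here.

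Starts came from Ensembl release 115 (BDGP release 6), and sequence from the RefSeq copy of the same assembly, whose lengths contain all coordinates. Computations used Python 3.11.15, pandas 2.3.3, NumPy 2.4.6 and SciPy 1.17.1. Summits were matched between lists within 100 bp. Where a gene had several summits, the strongest was taken. Assignment was checked on planted summits. With 1 group and no counts, no test was run; shares carry Wilson 95% intervals, and the limit for a count of 0 is 3 genes. Every bound gene is named, with up to 6 unbound genes by pooled signal, numbered pairs and up to 3 bound genes of each other list; further genes were added to account for all 53. The genes, lists, elements and rules were chosen with earlier results of these data known. Of 32 regulator symbols 30 matched the annotation, and 9 of 10 mitochondrial ones. Alternatives were other windows, the stronger 1446 peaks, the nearest start, peak overlap, other match distances and single replicates.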

Additional observations from a re-analysis of the deposited data

How the results depend on the processing

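The count of bound translation factor genes was 12 and stayed between 9 and 16 in the 7 alternatives: 11 with a window of 250 bp, 13 with 1000 bp or with any overlap of the peak, 10 with the nearest start only and 9 in the stronger 1446 peaks, where 7.6% of all protein-coding genes, or 1060, were bound and 4 of the other translation genes. eIF2Bbeta was gained with 1000 bp and with overlap, eIF1 was lost with 250 bp, and eEF2, eIF2A and eIF4E1 in the stronger peaks. Leaving out a replicate gave 12 to 16, and the median summit position then ran from −50 to −39.5 bp; it was −35 bp from the outermost start only. Genes with a pooled region numbered 36 with 250 bp and 45 with 1000 bp. Among the strongest regions of both replicates were 10 bound genes when summits were matched within 50 bp and 11 within 200 bp. No paired analysis was possible because the samples form 1 group. The control and the depth of the libraries were not examined, so a region below the threshold is not shown to be unbound.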
